A study of Mus musculus with 10 samples.

Results

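Stereocilia myosins and actin-core proteins comprised 10 genes of the 48709 listed for sorted utricular supporting cells: the motors Myo7a, Myo15, Myo6, Myo5a and Myo3a, the actin-core proteins Espn and Eps8, and the scaffolds Whrn, Ush1c and Ush1g. They were chosen by symbol, with earlier results of these data known, and all 10 were found. The cells came from P21 utricles, balance organs of the mouse inner ear, and were sorted for the green fluorescent reporter of Lfng-EGFP mice, which marks supporting cells. The organs were cultured in 10 µM TRULI, an inhibitor of the Lats kinases, or in 0.1% DMSO alone. DMSO_d5 (3 libraries) and TRULI_d5 (3 libraries) were collected after 5 days, and DMSO_d10 (2 libraries) and TRULI_d10 (2 libraries) after 5 days of treatment and 5 days of recovery without it. All groups shared the reporter genotype, the age and the culture, and the gate held no marker of hair cells. The libraries were described as biological replicates, but the labels do not say which cultures or animals each came from.

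A hair bundle is a staircase of stereocilia, each a rod of parallel actin filaments that is crosslinked by bundling proteins and lengthened at its tip. Myosins move along these filaments, carry scaffolds and length regulators to the tips and help to anchor the links and the membrane. Supporting cells surround the hair cells and make no hair bundle, although many of them carry microvilli, and some proteins of the bundle are also found in the microvilli of other epithelia.

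The conditions of 4 libraries differed between the sample label and the name under which the table was deposited. The libraries labelled TRULI_d5 replicates 1 and 2 were named DMSO_d10 replicates 1 and 2, and the libraries labelled DMSO_d10 replicates 1 and 2 were named TRULI_d5 replicates 2 and 3. The library labelled TRULI_d5 replicate 3 was named TRULI_d5 replicate 1, and the 3 DMSO_d5 and 2 TRULI_d10 libraries carried 1 condition. Ccn2, a target of Yap, had 13 and 18 counts in the libraries labelled TRULI_d5 replicates 1 and 2 and 1965 and 2148 counts in those labelled DMSO_d10, beside 2708 in the library labelled TRULI_d5 replicate 3 and 27 to 47 in DMSO_d5. Mki67, a gene of dividing cells, had 3 and 0 counts in the first pair, 509 and 251 in the second, 102 in the library labelled TRULI_d5 replicate 3 and 0 to 5 in DMSO_d5. Both genes thus followed the deposited names. They were low in the 2 libraries labelled TRULI_d5 and named DMSO_d10, and high in those labelled DMSO_d10 and named TRULI_d5. Every comparison below is given by label and by deposited name, and TRULI_d10 against DMSO_d5 uses only libraries without a conflict.

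Library totals ran from 2463872 to 6255149 counts, so that 3 counts, the floor used here, stood for 0.47 to 1.20 CPM (counts scaled to a common library size with TMM factors over all 10 libraries). All 10 supporting-cell markers, among them Sox2 and Lfng, were above the floor in every library, with sums of 4572 to 14080 CPM. The 12 hair-cell markers summed to 151 to 248 CPM in DMSO_d5, 36.1 and 41.8 in the libraries labelled TRULI_d5 replicates 1 and 2, 754 in replicate 3, 505 and 163 in those labelled DMSO_d10, and 911 and 161 in TRULI_d10. At least 5 and at most 11 of the 12 were above the floor in each library. Markers of endothelium and macrophages summed to at most 18.2 CPM, and those of melanocytes, of which at least 3 of 6 were at 0 in each library, to 8.77 to 47.5 CPM. Markers of neurons summed to 1.08 to 70.4 CPM, of Schwann cells to 99.6 to 220 CPM and of fibroblasts to 18.4 to 96.6 CPM. The mitochondrial RNA mt-Rnr2 took 13.0% to 26.4% of the counts in DMSO_d5 and in the 3 libraries named TRULI_d5, and 1.45% to 2.53% in the other 4. In such bulk samples, fewer cells of a type and less RNA per cell cannot be told apart.

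The windows around the outermost starts of Myo7a, Myo15, Espn and Myo6 are shown because these are the members whose windows held either of 2 motifs searched for, and those of Myo5a, Myo3a, Ush1c and Whrn held neither. They come from RefSeq (GRCm38.p6), run 5′ to 3′ on the gene's strand from 250 bases before to 50 bases from the start, and carry in capitals the letters CAGCTG, a palindrome of the E-box class that factors such as Atoh1 bind, and GGAATG or CATTCC, the same motif read on either strand, which is the core bound by the Tead partners of Yap. The Myo7a window is chr7:98119444-98119743 (minus strand), the Myo15 window chr11:60469089-60469388 (plus), the Espn window chr4:152152340-152152639 (minus) and the Myo6 window chr9:80164784-80165083 (plus).
Myo7a: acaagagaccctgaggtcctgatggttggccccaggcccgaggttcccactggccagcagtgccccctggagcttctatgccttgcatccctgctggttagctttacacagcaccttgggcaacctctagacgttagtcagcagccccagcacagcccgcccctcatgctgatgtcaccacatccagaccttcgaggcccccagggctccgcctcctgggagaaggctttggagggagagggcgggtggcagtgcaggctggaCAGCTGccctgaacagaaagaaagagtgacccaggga
Myo15: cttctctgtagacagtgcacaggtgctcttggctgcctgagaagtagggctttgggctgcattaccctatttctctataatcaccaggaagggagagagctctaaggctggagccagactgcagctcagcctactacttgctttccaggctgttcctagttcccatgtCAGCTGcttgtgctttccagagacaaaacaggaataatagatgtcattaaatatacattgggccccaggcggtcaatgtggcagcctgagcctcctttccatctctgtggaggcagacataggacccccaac
Espn: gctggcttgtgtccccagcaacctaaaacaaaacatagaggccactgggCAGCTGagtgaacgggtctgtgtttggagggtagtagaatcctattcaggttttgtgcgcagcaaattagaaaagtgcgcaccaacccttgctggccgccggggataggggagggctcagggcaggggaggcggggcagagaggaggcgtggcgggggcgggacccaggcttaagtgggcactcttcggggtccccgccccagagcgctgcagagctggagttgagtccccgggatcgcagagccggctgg
Myo6: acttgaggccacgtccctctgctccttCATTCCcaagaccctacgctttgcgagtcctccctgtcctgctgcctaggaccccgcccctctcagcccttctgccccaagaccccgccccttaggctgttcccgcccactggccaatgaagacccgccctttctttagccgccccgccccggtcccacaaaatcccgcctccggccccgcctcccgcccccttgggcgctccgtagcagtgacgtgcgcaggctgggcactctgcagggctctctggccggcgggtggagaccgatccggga
CAGCTG lay 13 bases after the start of Myo7a, 82 before that of Myo15 and 201 before that of Espn, and the Tead core lay 223 before that of Myo6. Windows were given for 8 of the 10 genes, 11 windows in all since Espn and Myo7a have several. CAGCTG was in 5 of the 11, from 3 genes, and the Tead core in 1, beside 16.3% and 14.7% of 32851 such windows over the genome. A match describes letters in a window and is not a binding site.

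Ush1c and Myo6 led the 10 genes in level per length. In FPKM, counts scaled to the effective length and to the protein-coding total, the medians over 10 libraries were 83.2 for Ush1c, 67.5 for Myo6, 16.7 for Eps8, 11.3 for Whrn, 10.1 for Espn, 6.09 for Myo7a, 3.70 for Myo5a, 1.53 for Myo15, 0.807 for Ush1g and 0.249 for Myo3a. The ranges of neighbours in this order overlapped: Ush1c ran from 27.6 to 192 FPKM and Myo6 from 39.4 to 198, Whrn from 6.37 to 22.5 and Espn from 1.85 to 73.1. Myo3a was at or under the floor in 5 libraries, Myo15 and Ush1g in 2 each, and Myo7a in 1. Levels in counts varied least for Eps8 and Myo6, by 2.07 and 2.09 times between the lowest and highest library in CPM, and by 167 times for Myo5a and 21.6 times for Espn. Myo7a, Myo15 and Myo3a fell to 0 CPM in at least 1 library and so have no such ratio. Their highest values were 49.5, 21.6 and 11.9 CPM.

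**Figure D1:**
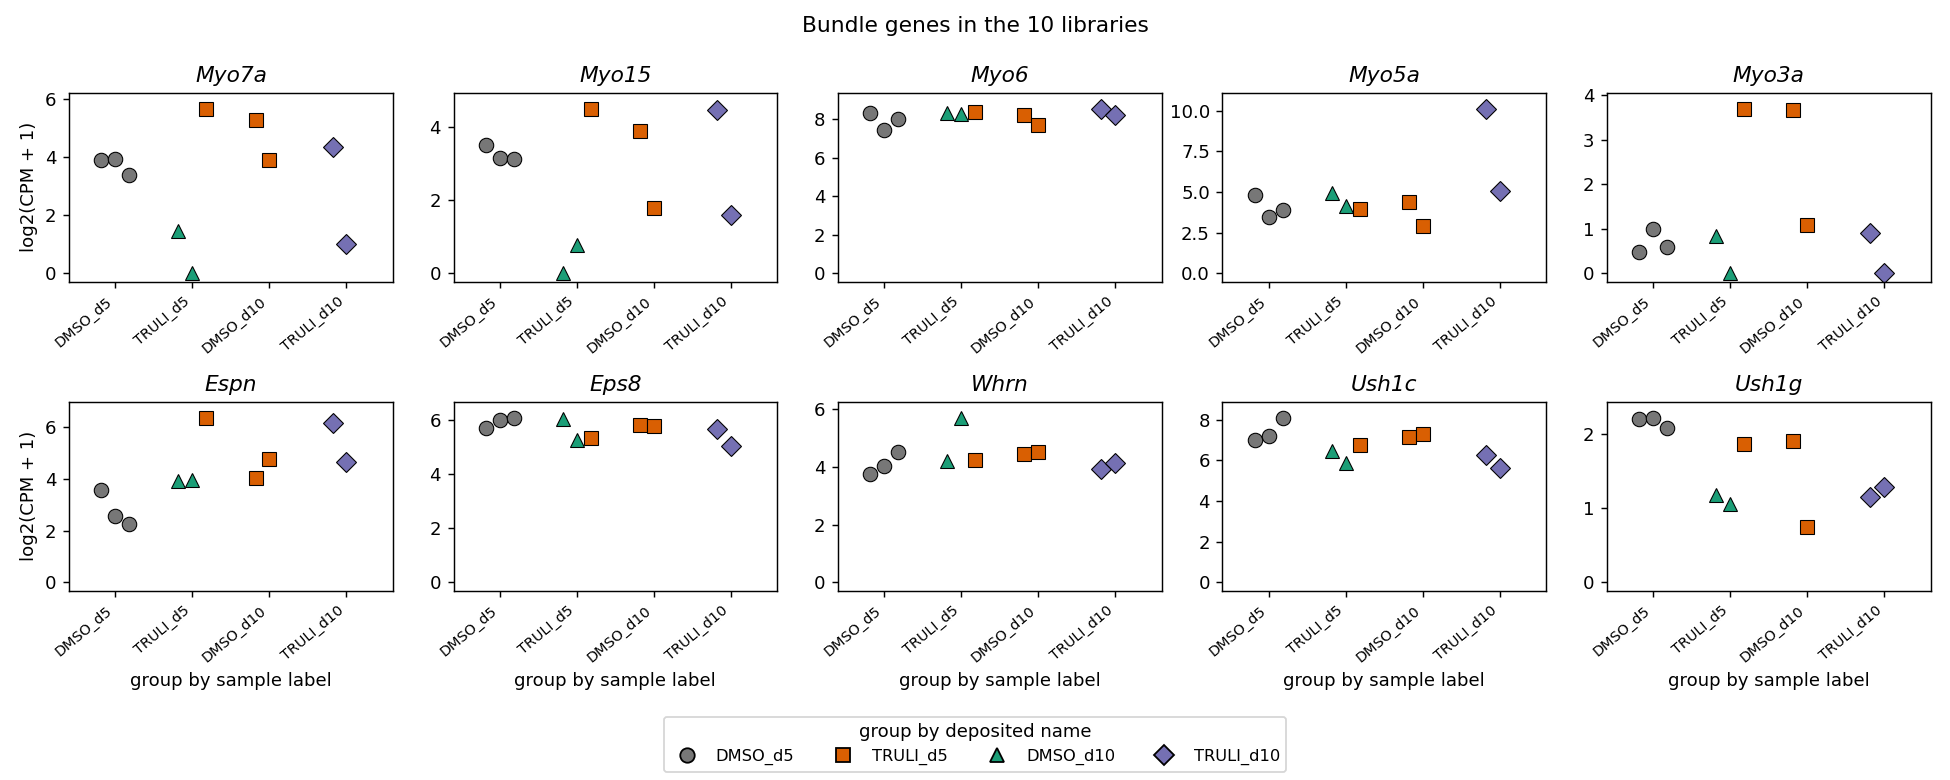
Level of each gene in the 10 libraries as log2(CPM + 1), grouped on the horizontal axis by sample label, with colour and shape giving the group by deposited name. Myo15 was lowest in the 2 libraries labelled TRULI_d5 and named DMSO_d10 (0 and 0.720 CPM), Myo7a was under 2 CPM in these and in TRULI_d10 replicate 2, Myo5a reached 1090 CPM in 1 library of TRULI_d10, and Myo6 and Eps8 stayed within about 2.1 times in CPM.

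Myo7a (ENSMUSG00000030761.15, chr7:98051060-98119524, minus strand) encodes the motor that anchors the upper end of the tip link and is a usual marker of hair cells. It measured 14.0, 14.5 and 9.44 CPM in DMSO_d5, 1.73 and 0 in the libraries labelled TRULI_d5 replicates 1 and 2, 49.5 in replicate 3, 38.2 and 14.2 in those labelled DMSO_d10, and 19.7 and 1.02 in TRULI_d10. Its lowest and highest values thus both carried the label TRULI_d5. Counted by deposited name, the 3 TRULI_d5 libraries (33.9 ± 18.1 CPM, SD, n = 3) overlapped DMSO_d5 (12.7 ± 2.79 CPM, n = 3) only through the library at 14.2. Per 100 CPM of summed hair-cell markers, Myo7a stood at 5.65 to 9.61 CPM in DMSO_d5, 6.57 in the library labelled TRULI_d5 replicate 3, 7.56 and 8.67 in those labelled DMSO_d10, and 2.16 and 0.633 in TRULI_d10. By this measure TRULI_d10 lay below those 6 libraries. The pair labelled TRULI_d5 and named DMSO_d10 gave 4.78 and 0, from 11 and 0 counts.

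Myo15 (ENSMUSG00000042678.16, chr11:60469339-60528369, plus strand) encodes the motor that carries whirlin and Eps8 to the stereocilia tips. It measured 10.4, 7.91 and 7.70 CPM in DMSO_d5, 0 and 0.720 in the libraries labelled TRULI_d5 replicates 1 and 2, 21.6 in replicate 3, 14.0 and 2.47 in those labelled DMSO_d10, and 21.5 and 2.04 in TRULI_d10. The 2 libraries labelled DMSO_d10, and the 2 of TRULI_d10, each differed more between themselves than the 3 DMSO_d5 libraries did. Myo3a (ENSMUSG00000025716.14, chr2:22227503-22618252, plus strand), a motor that transports espin, had 50 counts over the 3 libraries labelled TRULI_d5 and 6 over DMSO_d5. In CPM it was 0.401 to 0.988 in DMSO_d5, 11.9 in the library labelled TRULI_d5 replicate 3, 11.7 and 1.12 in those labelled DMSO_d10, and at most 0.872 in the other 4. Of the 113 counts of this gene, 97 lay in the 3 libraries named TRULI_d5, where their ratio to DMSO_d5 was 12.6 (95% counting interval 5.59 to 35.2, counting error only). By label that ratio was 6.15 (2.64 to 17.6).

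Myo6 (ENSMUSG00000033577.18, chr9:80165031-80311729, plus strand) encodes the motor that walks towards the base of the stereocilium and holds the membrane there. It ran from 174 to 311 CPM in DMSO_d5, from 303 to 329.9 in the libraries labelled TRULI_d5, was 291 and 203 in those labelled DMSO_d10, and 363 and 296 in TRULI_d10. It was high in all 10 libraries, including those with the fewest counts of Myo7a. Myo5a (ENSMUSG00000034593.16, chr9:75071015-75223688, plus strand), a vesicle motor known for moving pigment granules in melanocytes, measured 27.6, 10.2 and 14.2 CPM in DMSO_d5, 30.3, 16.9 and 14.2 in the libraries labelled TRULI_d5 replicates 1 to 3, and 20.2 and 6.51 in those labelled DMSO_d10. In TRULI_d10 it measured 1090 and 32.2 CPM, from 6249 and 158 counts. The melanocyte markers summed to 26.0 and 8.77 CPM in these 2 libraries and to 12.9 to 47.5 in the other 8.

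Espn (ENSMUSG00000028943.18, chr4:152120331-152152371, minus strand) encodes espin, which bundles parallel actin filaments. It measured 10.8, 4.94 and 3.73 CPM in DMSO_d5, 14.1, 14.4 and 80.6 in the libraries labelled TRULI_d5 replicates 1 to 3, 15.2 and 26.5 in those labelled DMSO_d10, and 70.8 and 24.5 in TRULI_d10. The 3 DMSO_d5 libraries were the lowest of the 10, and the library labelled TRULI_d5 replicate 3 had the most of both Espn and Myo7a. Eps8 (ENSMUSG00000015766.14, chr6:137477245-137654876, minus strand), which caps and bundles actin at the tips, measured 51.3 to 65.9 CPM in DMSO_d5, 37.1 to 63.7 in the libraries labelled TRULI_d5, 55.1 and 53.2 in those labelled DMSO_d10, and 49.9 and 31.8 in TRULI_d10. These groups overlapped, except that TRULI_d10 lay below DMSO_d5 and below the libraries labelled DMSO_d10.

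Ush1c (ENSMUSG00000030838.17, chr7:46195350-46238503, minus strand) encodes harmonin, a scaffold of the upper tip-link site that also sits in the brush borders of gut and kidney. It measured 125, 144 and 269 CPM in DMSO_d5, 86.6, 57.3 and 108 in the libraries labelled TRULI_d5 replicates 1 to 3, 139.9 and 156 in those labelled DMSO_d10, and 76.6 and 48.5 in TRULI_d10. The 4 lowest values were those of TRULI_d10 and of the pair labelled TRULI_d5 and named DMSO_d10. Ush1g (ENSMUSG00000045288.10, chr11:115315192-115322041, minus strand), which encodes the scaffold Sans of the same site, had 82 counts in all and measured 3.23 to 3.62 CPM in DMSO_d5 and 0.674 to 2.74 elsewhere. Whrn (ENSMUSG00000039137.18, chr4:63414910-63495991, minus strand), which encodes the tip scaffold whirlin, measured 12.4 to 21.6 CPM in DMSO_d5, 17.4, 50.4 and 17.7 in the libraries labelled TRULI_d5 replicates 1 to 3, 20.7 and 22.0 in those labelled DMSO_d10, and 14.3 and 16.5 in TRULI_d10. It was about level apart from the library at 50.4.

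At 5 days, which asks what the Lats inhibitor does while it is present, Espn had the largest log2 fold change of the 9 members tested in both groupings, while Myo3a, too low to be tested, differed more in mean CPM (6.70 times by label and 13.1 times by deposited name, from 6 counts in DMSO_d5). By label it was 36.4 ± 38.3 CPM in TRULI_d5 (SD, n = 3) against 6.50 ± 3.79 CPM in DMSO_d5 (n = 3), a log2 fold change of 2.52 (SE 0.80, adjusted p = 0.324 in edgeR's quasi-likelihood test). No member of 9 tested passed an adjusted p under 0.05 with a log2 fold change beyond 1, against 0.00903% of 11071 genes, or 1 gene. DESeq2 also called none of the 9 and 2.3% of genes. In edgeR 2 of the 9, Espn and Ush1c, had an unadjusted p under 0.05, as had 1515 of the 11071 genes. The groups did not overlap for Espn, which was higher, and for Ush1c and Ush1g, which were lower, that is 3 of 9 members, against 18.2% of genes. The log2 fold changes of Ush1c and Ush1g were -1.08 (SE 0.41, adjusted p = 0.341) and -1.04 (SE 0.71, adjusted p = 0.508), and those of Myo7a and Myo15 were 0.46 (SE 1.31) and -0.19 (SE 1.36). Without the library labelled TRULI_d5 replicate 3, Myo7a, Myo15 and Ush1c were called lower, with log2 fold changes of -3.59 (adjusted p = 0.0284), -4.93 (adjusted p = 0.0209) and -1.33 (adjusted p = 0.0474), with 18.8% of the genes tested called in either direction. That fit leaves as TRULI_d5 only the 2 libraries named DMSO_d10, which were low in Ccn2 and Mki67. It may therefore not show what the inhibitor does while it is present. With the library labelled TRULI_d5 replicate 3 alone, without the 2 libraries of conflicting name, Myo7a and Espn had log2 fold changes of 1.98 and 3.68. That library had the most of both genes (49.5 and 80.6 CPM) of all libraries. Keeping it alone favours these 2 changes, which are thus no support for a rise. The fit assumes that this lone library varies as the controls do.

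By deposited name Espn rose at 5 days, from 6.50 ± 3.79 CPM in DMSO_d5 to 40.8 ± 35.0 CPM in TRULI_d5 (SD, n = 3 each), with a log2 fold change of 2.71 (SE 0.62, adjusted p = 0.0426, edgeR). It was 1 of 9 members called, against 3.07% of 11529 genes. The groups did not overlap for 2 of the 9, Espn and Ush1g, against 21.3% of genes, nor for Myo3a, which was too low to be tested. Myo7a had a log2 fold change of 1.45 (SE 0.43, adjusted p = 0.114). Samples with the same number deviated together in this grouping, a pairing judged from the same counts that were tested. With the replicate number as a block Myo7a was called at 1.30 (SE 0.30, adjusted p = 0.0169) beside Espn at 2.52 (SE 0.32, adjusted p = 0.000742), with 6.05% of genes called. The other 7 had log2 fold changes from -0.77 for Ush1g to 0.57 for Myo15, with adjusted p from 0.572 to 0.809. The call for Espn was lost without DMSO_d5 replicate 2 (adjusted p = 0.212), without DMSO_d5 replicate 3 (0.149) or without the library named TRULI_d5 replicate 1 (0.117), and in a fit of all 10 libraries (0.0834). Without the library named TRULI_d5 replicate 3, Myo7a (1.81, adjusted p = 0.0174) and Myo3a (4.16, adjusted p = 0.00979) were called as well, with 3.23% of genes called. That library was the lowest of the 3 for both genes, with 1.12 CPM of Myo3a beside 11.9 and 11.7. Leaving it out favours these 2 calls, which are thus no support for a rise. The hair-cell markers summed to 151 to 248 CPM in DMSO_d5 and to 754, 505 and 163 CPM in these TRULI_d5 libraries, and 10 of 10 tested had a log2 fold change above 0 with none called. Their part in the values of Espn and Myo7a was not tested.

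**Figure D2:**
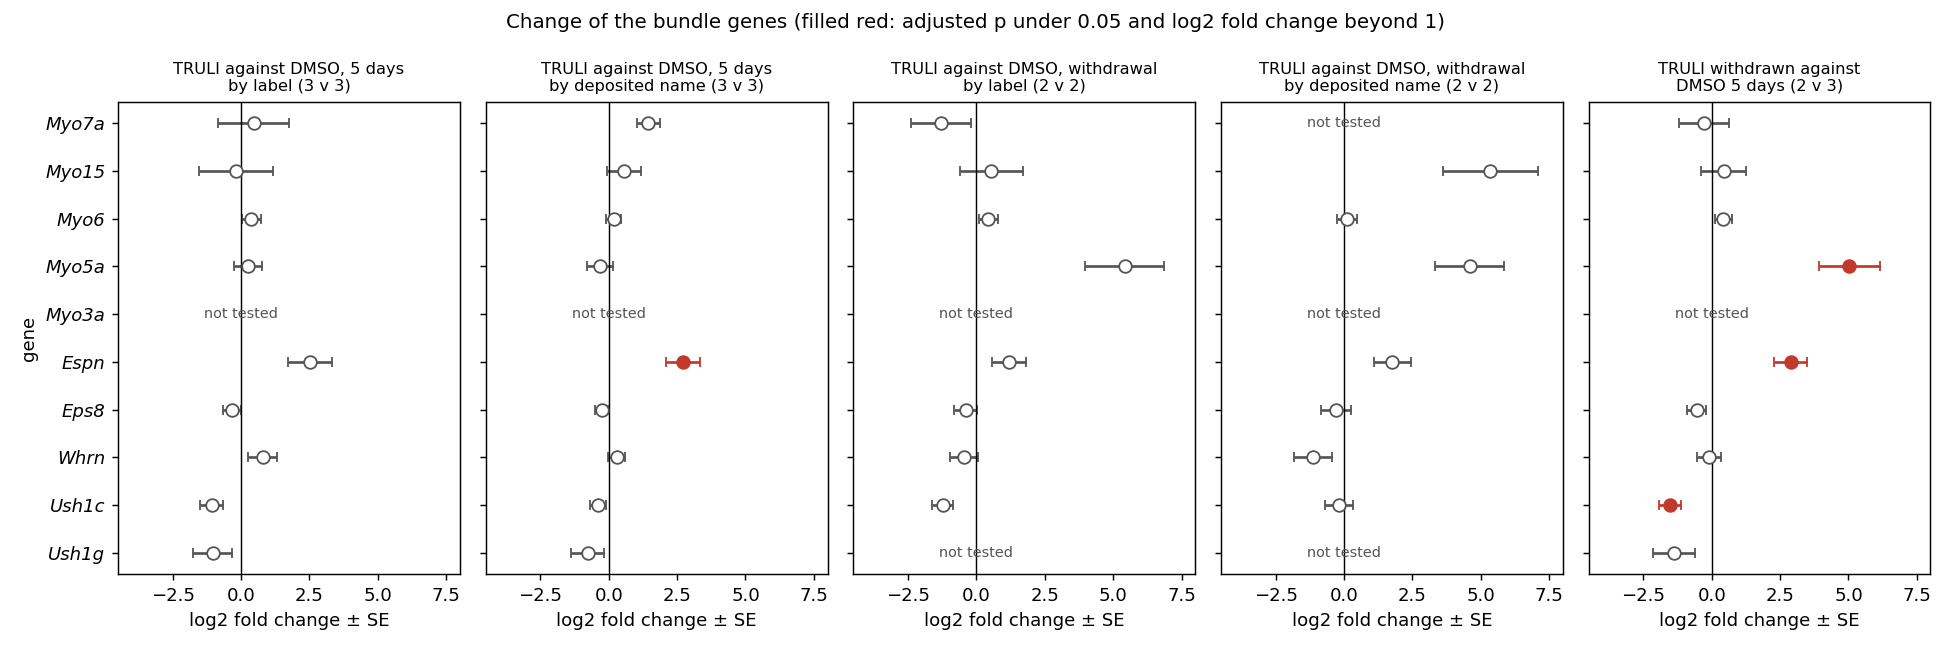
Log2 fold change of each gene, with its standard error, in 5 comparisons. Filled red points passed the test: Espn at 5 days by deposited name, and Myo5a, Espn and Ush1c in TRULI_d10 against DMSO_d5, and no gene passed in the other 3 panels.

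After withdrawal, which asks what is left of the response once the compound is gone, no member passed the test in either grouping. By label the controls are the 2 libraries with high Ccn2 and Mki67, so this grouping may not answer that question. Both genes were called lower in TRULI_d10 by label (log2 fold changes of -5.65 and -11.76, adjusted p = 0.0312 each, edgeR). By label Myo5a was 561 ± 748 CPM in TRULI_d10 and 13.4 ± 9.68 CPM in DMSO_d10 (SD, n = 2 each), a log2 fold change of 5.42 (SE 1.45, adjusted p = 0.0842), and Ush1c was 62.5 ± 19.8 against 148 ± 11.6 CPM, a log2 fold change of -1.24 (SE 0.39, adjusted p = 0.113). Of 8 members tested 0 were called by edgeR, against 2.07% of 12242 genes, while DESeq2 called 12% of genes, among them Myo5a (adjusted p = 0.0378) and Ush1c (adjusted p = 0.0476). These were also the 2 members with an unadjusted p under 0.05 in edgeR, as had 3001 of the 12242 genes. The groups did not overlap for 5 of the 8, Myo6, Myo5a, Eps8, Whrn and Ush1c, against 57.7% of genes. The 2 TRULI_d10 libraries stood far apart, at 911 and 161 CPM of hair-cell markers. Without TRULI_d10 replicate 1, Myo7a (-4.66, adjusted p = 6.27e-07), Myo3a (-7.84, adjusted p = 0.00427) and Ush1c (-1.63, adjusted p = 0.00574) were called lower, and without replicate 2, Myo5a (6.35, adjusted p = 9.15e-15) and Espn (1.75, adjusted p = 0.00556) were called higher. Of all genes tested, 24.4% were called in the first of these fits and 18.2% in the second, so that 3 and 2 of 10 members lay near those shares. These fits leave 1 TRULI_d10 library, which is assumed to vary as the other group does. Myo3a, with 0 CPM in TRULI_d10 replicate 2, was too low to be tested with both TRULI_d10 libraries. In this grouping 2 of 10 supporting-cell markers, Lfng and Slc1a3, were called lower.

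By deposited name, DMSO_d10 held the 2 libraries with the fewest hair-cell marker counts, and all 8 of the tested hair-cell markers had a log2 fold change above 0. Myo15 had 133 counts over TRULI_d10 and 2 over DMSO_d10, a ratio of 57.2 (95% counting interval 15.5 to 477, counting error only), of which TRULI_d10 replicate 1 held 123. Myo7a had 118 and 11 counts, 113 of them in TRULI_d10 replicate 1, and did not pass the filter on low counts. Myo5a, Espn and Whrn had log2 fold changes of 4.60 (SE 1.26), 1.76 (SE 0.67) and -1.12 (SE 0.69). Ush1c was 62.5 ± 19.8 CPM in TRULI_d10 and 71.9 ± 20.7 CPM in DMSO_d10 (SD, n = 2 each), a log2 fold change of -0.18 (SE 0.51). Those of Myo6 and Eps8 were 0.11 (SE 0.35) and -0.29 (SE 0.55). None of the 7 members tested was called, with adjusted p of at least 0.923, and 0% of 11568 genes were (532 at an unadjusted p under 0.05). DESeq2 called none of the 7 members, and Myo15, Myo5a and Espn had an unadjusted p under 0.05 in edgeR. Groups did not overlap for 4 of the 7, Myo15, Myo5a, Espn and Whrn, against 28.7% of genes. Of the 10 supporting-cell markers none was called in this grouping. Lfng, Slc1a3, Otog and Sox2 had log2 fold changes of 0.98 (SE 0.61), -0.07 (SE 0.34), -0.05 (SE 0.39) and -0.35 (SE 0.53).

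The difference between the effect after withdrawal and the effect at 5 days was tested in a fit of all 10 libraries. By label the difference was 5.13 on the log2 scale for Myo5a (SE 1.48, adjusted p = 0.649) and -6.43 for Myo3a (SE 2.54, adjusted p = 0.668). By deposited name it was 4.89 for Myo5a (SE 1.38, adjusted p = 0.383) and 4.85 for Myo15 (SE 1.73, adjusted p = 0.433). In edgeR none of the 10 members was called in either grouping, as were 0% of 12841 genes by label (874 at an unadjusted p under 0.05) and 0% by deposited name (1217). At an unadjusted p under 0.05 there were 2 members by label, Myo5a and Myo3a, and 2 by deposited name, Myo5a and Myo15, and DESeq2 called Myo5a by label (adjusted p = 0.0258, with 0.35% of genes called) and no member by deposited name.

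TRULI_d10 against DMSO_d5 rests only on libraries whose label and name gave the same condition, and in it 2 members rose and 1 fell. Myo5a was 561 ± 748 CPM in TRULI_d10 (SD, n = 2) and 17.3 ± 9.14 CPM in DMSO_d5 (n = 3), a log2 fold change of 5.03 (SE 1.11, adjusted p = 0.0185, edgeR). Espn was 47.6 ± 32.8 against 6.50 ± 3.79 CPM, 7.33 times higher, with a log2 fold change of 2.90 (SE 0.60, adjusted p = 0.0156). Ush1c was 62.5 ± 19.8 against 179 ± 77.8 CPM and fell by 1.52 on the log2 scale (SE 0.41, adjusted p = 0.0335). These 3 of 9 members compare with 19.5% of 11760 genes. The groups did not overlap for 5 of 9, those 3 with Eps8 (-0.55, SE 0.33, adjusted p = 0.264) and Ush1g (-1.38, SE 0.76, adjusted p = 0.220), both lower, against 52.7% of genes. Myo6, Myo7a, Myo15 and Whrn had log2 fold changes of 0.42, -0.28, 0.44 and -0.11, with adjusted p of 0.353 to 0.883. For TRULI_d10 against the libraries named DMSO_d10, Myo5a, Espn and Ush1c had log2 fold changes of 4.60, 1.76 and -0.18, with none called.

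The calls of TRULI_d10 against DMSO_d5 depended on single libraries. Without TRULI_d10 replicate 1, the change of Myo5a was 0.96 (adjusted p = 0.176), while Espn (1.99, adjusted p = 0.0267) and Ush1c (-1.84, adjusted p = 0.0186) were still called and Myo7a was called lower (-3.53, adjusted p = 0.00811), 3 of 9 members beside 28.9% of genes. Without TRULI_d10 replicate 2, Ush1c was not called (adjusted p = 0.0709). Without DMSO_d5 replicate 1, Myo5a (adjusted p = 0.0588) and Ush1c (0.0550) were lost, without replicate 2 or replicate 3 all 3 were (0.0615 to 0.103), and in a fit of all 10 libraries all 3 were (0.0648 to 0.0800). The treatment, the days in culture and the share of mt-Rnr2 differ together between these groups and cannot be told apart, and the controls are the same 3 libraries as at 5 days. Of the supporting-cell markers, 4 of 10 were called lower, namely Sox2, Otog, Slc1a3 and Lfng, the gene behind the sorted reporter, whose log2 fold change was -2.67 (SE 0.31, adjusted p = 0.00376). Of the hair-cell markers 1 of 10 tested, Cabp2, was called higher (2.04, SE 0.54, adjusted p = 0.0320), as were 1 of 2 tested markers of fibroblasts, Col1a2, and 1 of 2 of Schwann cells, Mbp. The part of these markers in the members' values was not tested.

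**Figure D3:**
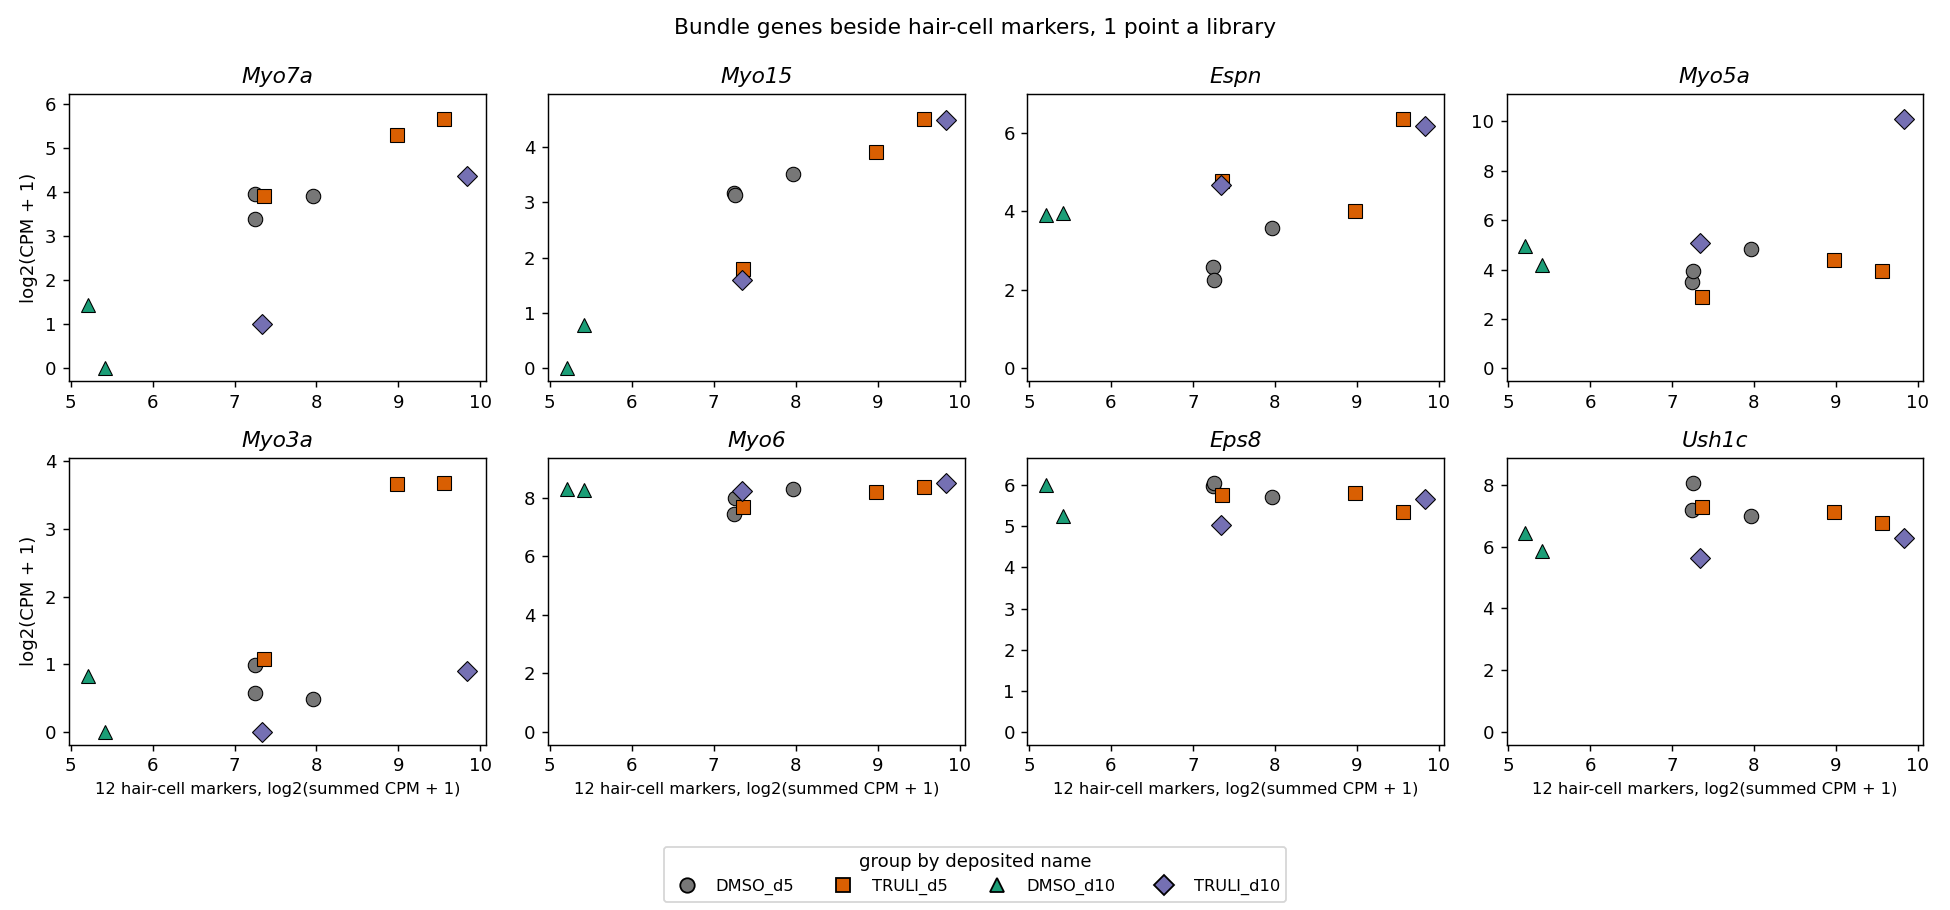
Level of 8 of the genes against the sum of 12 hair-cell markers in the same library, both on a log2 scale with 1 added to CPM, coloured by deposited name. The 2 libraries with the lowest marker sums (36.1 and 41.8 CPM) had 1.73 and 0 CPM of Myo7a but 315 and 303 CPM of Myo6. TRULI_d10 replicate 1, with the highest sum (911 CPM), had the most Myo5a. The libraries with the next highest sums (754 and 505 CPM) had 14.2 and 20.2 CPM of Myo5a, less than the 30.3 CPM in the library with the lowest sum.

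Other genes of the bundle were read from 2 lists, 27 of motors and actin proteins and 13 of links and Usher partners. Of the first list 23 were tested at 5 days in each grouping. By label none was called, and by deposited name 1 was, Clic5, a protein of the stereocilia base, which rose by 1.26 on the log2 scale (SE 0.27, adjusted p = 0.0302), against 3.07% of all genes tested. The median log2 fold change of the list by deposited name was 0.28, beside 0.03 over all genes tested. After withdrawal none of 24 tested by label and none of 22 by deposited name was called. In TRULI_d10 against DMSO_d5, 5 of 23 were called higher and 2 lower, against 19.5% of all genes called (1292 higher and 1005 lower of 11760), with a median of 0.56 beside 0.02 over all genes. The 3 with the smallest adjusted p were Gpsm2, which sets the length and polarity of the bundle (-2.62, SE 0.48, adjusted p = 0.0118), Fscn1, a crosslinker of actin in filopodia and microvilli (1.58, SE 0.34, adjusted p = 0.0171), and Actg1, a cytoplasmic actin of most cells (-1.26, SE 0.27, adjusted p = 0.0171). The other 4 called higher were Myo1c, Myo10, Pls1 and Triobp, at 1.34 to 1.65, named here after their values were seen. Fscn1 measured 132 to 194 CPM in DMSO_d5 and 347 and 683 CPM in TRULI_d10, without overlap. Gpsm2 measured 30.3 to 42.1 CPM and 8.37 and 3.87 CPM, also without overlap. The libraries labelled TRULI_d5 and named DMSO_d10 had 532 and 670 CPM of Fscn1. For TRULI_d10 against DMSO_d10 by deposited name, the log2 fold changes of these called genes ran from -0.85 for Gpsm2 to 0.18 for Triobp. By label they ran from -2.99 for Gpsm2 to 2.12 for Myo1c. Of the links and Usher partners, 11 were tested at 5 days, 11 and 7 after withdrawal by label and by deposited name, and 11 in TRULI_d10 against DMSO_d5, and none was called in any of these. Their median at 5 days was 1.13 by deposited name, with 10 of 11 above 0, and 0.36 by label, with 8 of 11. After withdrawal it was -0.04 by label, with 5 of 11 above 0, and 2.00 by deposited name, with 6 of 7, and in TRULI_d10 against DMSO_d5 it was 0.16, with 7 of 11. The hair-cell markers, a list that shares Tmc1 with this one, had medians of 1.29 at 5 days by deposited name, 0.53 by label, 0.86 and 3.40 after withdrawal by label and by deposited name, and 1.39 in TRULI_d10 against DMSO_d5, and their part in the values of the links was not tested. The smallest adjusted p of the links was that of Tmie in TRULI_d10 against DMSO_d5 (-2.07, SE 0.64, adjusted p = 0.0507), followed by Tmc1 in the same comparison (1.95, SE 0.62, adjusted p = 0.0560) and Lhfpl5 at 5 days by deposited name (2.36, SE 0.60, adjusted p = 0.0615), all 3 being components of the transduction channel complex.

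The tables also gave a length for each gene, averaged over its transcripts by their estimated abundance, which is a readout of the isoforms to which the reads were assigned. Of gene and library pairs with counts and several annotated transcripts, 98.5% had a length between the shortest and the longest of them. For Myo5a the length in both TRULI_d10 libraries was 11702 bases, that of the transcript Myo5a-201 with 41 exons. It was 2717 to 11219 bases in the other 8 libraries, where the gene had 29 to 193 counts. All 6249 and 158 counts of TRULI_d10 were thus assigned to the longest annotated transcript, and no other library reached that length. For Myo15 the length was 7953 bases, that of Myo15-202 with 64 exons, in both TRULI_d10 libraries (123 and 10 counts), in the library labelled DMSO_d10 replicate 2 (11 counts) and in that labelled TRULI_d5 replicate 2 (2 counts). Elsewhere it was 3880 to 7633 bases. The longest annotated Myo15 transcript has 11769 bases, and no library exceeded 7953 bases. Myo6 moved from 2182 to 7445 bases, and its FPKM, which is divided by the effective length, spread over 39.4 to 198 while its CPM spread over 174 to 363. Ush1c stayed within 1965 to 2063 bases, and Ush1g has 1 annotated transcript of 3306 bases. With few counts these lengths are imprecise, and the tables give no error for them.

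**Figure D4:**
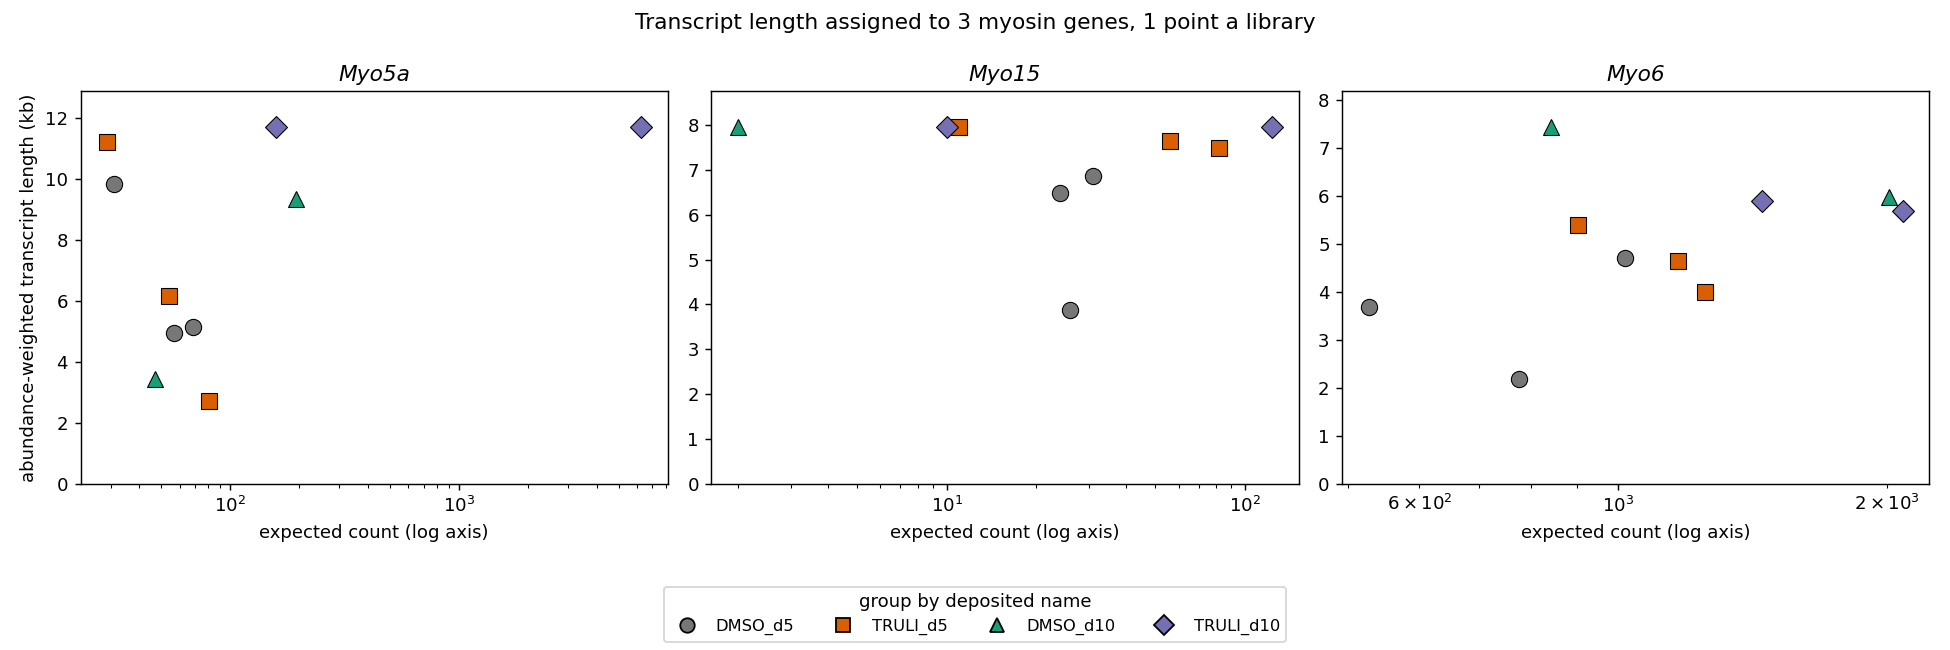
Abundance-weighted transcript length of Myo5a, Myo15 and Myo6 in each library with counts, in kilobases, against the expected count on a log axis, coloured by deposited name. Both TRULI_d10 libraries lie at 11702 bases for Myo5a although their counts were 6249 and 158.

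The genes whose log2(CPM + 1) followed a member most closely over the 10 libraries were read among 9894 protein-coding genes with a mean of at least 5 CPM. For Myo7a they were Gfi1, a transcription factor of hair cells, with Pearson's r of 0.97, Wdr63 (0.97) and Dpysl2 (0.97). For Myo15 they were Cfap206 (0.98), Dnajc1 (0.98) and its relative Myo15b (0.98). For Eps8 they were Sbk1 (0.94), Hsd17b11 (0.94) and Fbxo44 (0.92). These values describe 10 libraries that share groups, depth and the same sort, and they say nothing of control or function.

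Reads of several members can be shared with neighbours, since the strand used in counting is not given in the sources used here. Myo6 overlaps an antisense gene, Ush1g overlaps the protein-coding Otop2 on the other strand, Myo5a and Myo3a contain pseudogenes, and Eps8 and Ush1c overlap unclassified genes. Myo7a, Myo15, Espn and Whrn overlap no annotated gene.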

How the data were processed

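RNA of Lfng-EGFP supporting cells was sequenced in 10 libraries. The authors mapped paired reads to GRCm38/mm10 with STAR and identified changed genes with DESeq2. The program that made the deposited tables is not given in the sources used here. They give, in RSEM's form, an expected count for each gene, deposited without normalization, with a length and an effective length. The methods and the labels name different library kits.

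Groups came from the sample labels and, side by side, from the deposited names. Expected counts were rounded, and 48349 of 48709 genes matched GENCODE M21 (GRCm38). edgeR 4.0.16 (R 4.3.3) was run with filterByExpr, TMM and the quasi-likelihood test on the groups compared, with Benjamini-Hochberg adjustment over all genes tested. Calls required a log2 fold change above 1 or below -1 together with an adjusted p under 0.05; for a difference of effects the adjusted p sufficed. DESeq2 1.42.0, its size factors, no filter, protein-coding genes only, all 10 libraries, leaving out each library and a replicate block were alternatives. The code was tested on simulated counts. CPM used TMM factors over 10 libraries, and FPKM the effective lengths and protein-coding totals. Intervals of count ratios are exact binomial, at 95%. No 2 libraries held the same counts (chi-square per degree of freedom at least 15.3). The p-values measure the spread between these libraries, which may be technical.

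Same-numbered libraries deviated together at 5 days by deposited name (correlations of deviations 0.35, 0.16 and 0.29 over genes), which by a minimum of 0.1 over 3 pairs was taken as pairing. The pairing comes from the numbers in the names alone and was judged from the same counts that were tested. The labels do not link the cultures or animals.

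Named were all 10 members, of the other bundle genes up to 3 called in a comparison by adjusted p, and the 3 most similar genes of Myo7a, Myo15 and Eps8. Tmie, Tmc1, Lhfpl5, 4 further bundle genes called in TRULI_d10 against DMSO_d5 and the called markers were named after their values were seen. The members and lists were chosen with earlier results of these data known. Embryonic libraries were not analysed here.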

Additional observations from a re-analysis of the deposited data

How the results depend on the processing

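The number of members called was 0 at 5 days by label. It became 1 with no filter on low counts and 0 to 3 when leaving out 1 library, and stayed 0 with the replicate block. At 5 days by deposited name it was 1, and became 2 in DESeq2, 3 with no filter, 2 with the replicate block, 0 in a fit of all 10 libraries and 0 to 3 when leaving out 1 library. After withdrawal by label it was 0, and became 2 in DESeq2, 1 with no filter, 1 with the replicate block (Myo5a, 4.19, adjusted p = 0.00275) and 0 to 3 when leaving out 1 library. By deposited name it was 0 and became 2 with no filter. In TRULI_d10 against DMSO_d5 it was 3, became 2 with the replicate block and 0 in a fit of all 10 libraries, and ran from 0 to 3 when leaving out 1 library. For the difference of effects it was 0, became 1 in DESeq2 and 1 with no filter by label, and by deposited name 2 with no filter and 0 to 1 when leaving out 1 library. The share of all genes called moved too. At 5 days by label it was 0.00903% in the main test and 3.2% with no filter. By deposited name it was 3.07%, and 5.06% in DESeq2, 4.47% with no filter and 6.05% with the replicate block. After withdrawal by label it was 2.07%, and 12%, 9.07% and 10.4% in the same order. In TRULI_d10 against DMSO_d5 it was 19.5%, 13.6% with the block and 0.0935% in the fit of all 10 libraries. After withdrawal by deposited name it was 0%, and 1.06% with no filter. For the difference of effects by label it was 0%, 0.35% in DESeq2 and 0.992% with no filter. By deposited name that difference gave 0%, and 1.44% with no filter. When leaving out 1 library at 5 days, the share ran from 0% to 18.8% by label and from 0.444% to 3.23% by deposited name. The cause of these changes was not tested.

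One direction reversed with a call: Myo7a at 5 days by label, at 0.46 with all libraries and -3.59 to 1.03 when leaving out 1 library, the lowest without the library labelled TRULI_d5 replicate 3. That fit leaves as TRULI_d5 only the 2 libraries named DMSO_d10. Of 779 single values of members under the alternatives, 681 kept direction and side, 26 became called, 18 lost the call, 1 reversed, and 53 changed sign with no call. Genes called in all ranged over the alternatives from 0 to 2138 (1 in the main test) at 5 days by label, 54 to 902 (354) by deposited name, 0 to 3154 (253) and 0 to 197 (0) after withdrawal, 12 to 3580 (2297) in TRULI_d10 against DMSO_d5, and 0 to 214 (0) and 0 to 310 (0) for the differences. Replicate numbers were not taken as pairing by label at 5 days (correlations -0.14, 0.05 and -0.18), after withdrawal (0.19 by label and 0.16 by deposited name, 2 pairs each) or in TRULI_d10 against DMSO_d5 (-0.0047 and -0.0048). Floors of 0.47 to 1.20 CPM limit what can be said of Myo3a, Ush1g and, where it is low, Myo15.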
